A study of Mus musculus with 12 samples.

Results

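Nucleotide excision repair genes were examined as a group of 41 mouse genes out of 49492 in the deposited gene table. They were taken by name from a list of pathway members, by a rule that uses no measured value. Earlier results of these data were known when they were chosen. The samples were skin of mice from 2 groups, labelled UV light and Control, with 3 samples each. Each sample gave an m6A immunoprecipitation (IP) library and an input library, so 12 libraries were used. The study was titled as one of photoaging and of the m6A writer KIAA1429. Strain, age, genotype, and the kind, dose and timing of the light were not given in the sources used here, nor whether the 3 samples of a group came from separate animals. The p-values therefore measure the spread between these samples, which may be technical. All 41 genes passed the filters on low counts in every test.

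Nucleotide excision repair removes bulky DNA lesions, among them the pyrimidine dimers and photoproducts that ultraviolet light makes in skin. Lesions are found either by the XPC and UV-DDB complexes anywhere in the genome or by CSB and CSA at a stalled RNA polymerase. TFIIH then opens the helix, XPA and RPA verify and protect the strands, the nucleases XPG and XPF-ERCC1 cut on either side, and polymerases and ligases refill the gap. N6-methyladenosine (m6A) is a mark within mRNA, found most often near stop codons and in long internal exons. MeRIP-seq pulls down RNA fragments with an antibody to it, and the ratio of IP to input reads gives a relative enrichment.

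The 12 libraries held 24126662 to 92163619 reads in genes, of which 0.118 to 0.158% fell in the 41 genes. Keratinocyte markers were abundant in every input library, with 7 suprabasal markers summing to 53725 to 87670 CPM (read counts scaled to library size) in UV skin and 23610 to 74227 in control skin. Several markers of cell types moved between the groups, and their part in the results below was not tested. The 6 basal keratinocyte markers summed to 9779 to 14599 CPM in UV skin and 4438 to 9726 in control skin, with 1 (Itgb4) called higher. The 12 skeletal muscle markers summed to 1980 to 5428 CPM in UV skin and 5455 to 12884 in control skin, with 2 called lower. Of 7 fibroblast markers 3 were called lower, as were 3 of 4 tested T cell markers and 2 of 5 macrophage markers, while 4 of 8 adipocyte markers were called higher. Of 11 hair follicle markers 10 had a log2 difference below 0, with a median of -0.54, and 4 were lower at an unadjusted p below 0.05. They summed to 21244 to 51776 CPM in UV skin and 34557 to 72939 in control skin. None of the 11 was called by edgeR, while DESeq2 called 3 lower and edgeR with library totals alone 2. No neutrophil marker of 4 tested was called by edgeR, with 1 higher at an unadjusted p below 0.05 and 1 called by DESeq2. In bulk skin, fewer cells of a type and less RNA per cell cannot be told apart.

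Among transcript levels in the input libraries, 3 of the 41 genes were higher in UV skin and none was lower, by edgeR as by DESeq2. These were Ercc5, Ercc3 and Lig1, called at an adjusted p below 0.05 (edgeR quasi-likelihood test, Benjamini-Hochberg adjustment over 24099 genes). Over all genes tested, 3.02% were called higher and 2.81% lower, and the members' count of 3 is read against that background and says nothing of the pathway as a whole. At an unadjusted p below 0.05, 12 members were higher and 1 (Xrcc1) was lower, while 25.1% of all genes had such a p in either direction. The log2 fold change was above 0 in 32 members, against 47.5% of all genes, with a median of 0.12 against -0.02 over all genes. When libraries were scaled by their totals alone, 22 members lay above 0 and 10 changed sign. The median of all genes then fell by 0.10, and the calls over all genes were 30.9% upward in place of 51.9%. The members' median stayed 0.14 above that of all genes under both scalings. Every UV library lay above every control library for 17 members, where 15.5% of all genes showed that order. For 1 member, Xrcc1, every UV library lay below every control library, where 15.5% of all genes did.

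**Figure D1:**
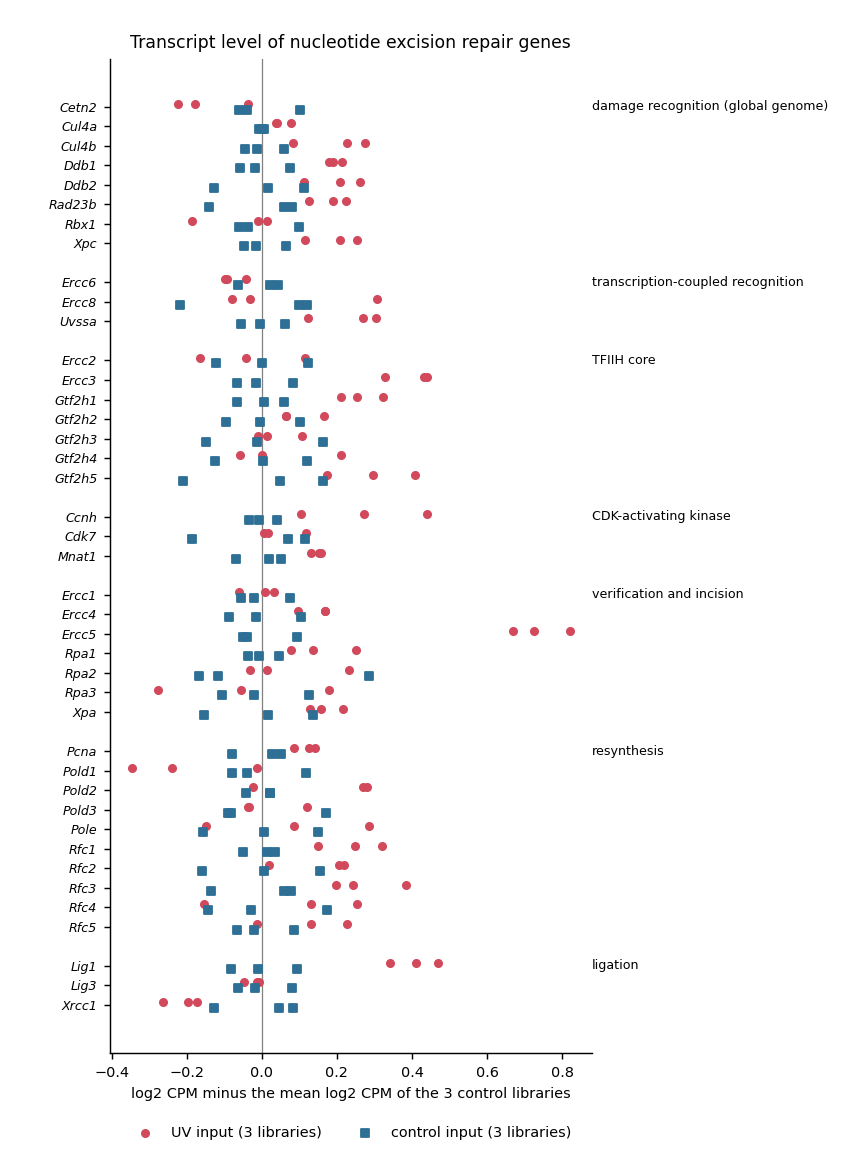
Transcript level of the 41 genes, grouped by role, as log2 CPM in each input library minus the mean of the 3 control libraries. Circles are UV libraries and squares are control libraries, and Ercc5 stands apart, its 3 UV libraries lying well to the right of every control library.

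Ercc5 encodes XPG, the endonuclease that cuts on the 3′ side of the lesion and also holds TFIIH together. It measured 70.9, 66.4 and 63.9 CPM in the UV input libraries, against 42.8, 38.8 and 39.1 CPM in the control input libraries. The lowest UV library lay far above the highest control library. The difference was 0.74 on the log2 scale (SE 0.08), a fold of 1.67, with an adjusted p of 0.00468 (edgeR quasi-likelihood test). Ercc5 was called in every alternative run, with log2 values of 0.63 to 0.80 and adjusted p of 3.7e-09 to 0.0302.

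Ercc3 encodes XPB, the TFIIH translocase that drives the opening of the helix. It measured 64.6, 60.2 and 65.0 CPM in UV skin, against 50.8, 45.8 and 47.4 CPM in control skin. The groups did not overlap, and the difference was 0.40 (log2, SE 0.08), a fold of 1.32, with an edgeR adjusted p of 0.0273. Lig1 encodes DNA ligase I, which seals the repair patch in dividing cells and joins Okazaki fragments in replication. It measured 112.5, 117.2 and 107.3 CPM in UV skin, against 80.0, 90.3 and 84.0 CPM in control skin. Again no library of either group crossed into the other, with a difference of 0.41 (log2, SE 0.08), a fold of 1.33 and an edgeR adjusted p of 0.0275. Both calls were kept without Control 2 or Control 3 and lost without any 1 of the other libraries. Without Control 1, UV 1, UV 2 or UV 3, in that order, the edgeR adjusted p of Ercc3 was 0.0569, 0.121, 0.0760 and 0.0992, and that of Lig1 was 0.0853, 0.115, 0.0946 and 0.0754. Both were also lost when libraries were scaled by their totals alone, at adjusted p of 0.0945 for Ercc3 and 0.112 for Lig1.

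**Figure D2:**
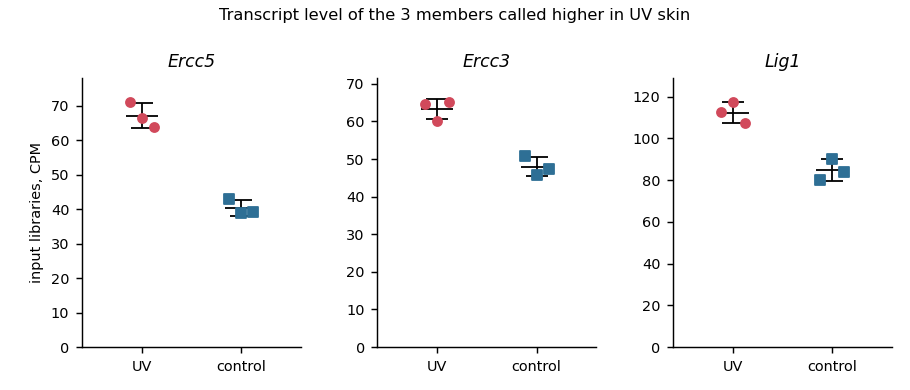
CPM of Ercc5, Ercc3 and Lig1 in the 3 UV and 3 control input libraries. Points are libraries, the bar is the mean and the whiskers are 1 SD. In each gene the UV points lie above the control points, with the widest gap in Ercc5 (folds of 1.67, 1.32 and 1.33).

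Promoter sequences are shown for Ercc5, which had the largest difference, and for Lig1, for which RefSeq gives 3 starts, 2 of whose windows lie in the span of a peak described further on. Each run covers 250 bases before to 50 after a transcript start, taken from RefSeq (GRCm38.p6), read 5′ to 3′ on the plus strand. The motifs found by script are in capitals.
Ercc5, chr1:44147494-44147793, with a CCAAT box: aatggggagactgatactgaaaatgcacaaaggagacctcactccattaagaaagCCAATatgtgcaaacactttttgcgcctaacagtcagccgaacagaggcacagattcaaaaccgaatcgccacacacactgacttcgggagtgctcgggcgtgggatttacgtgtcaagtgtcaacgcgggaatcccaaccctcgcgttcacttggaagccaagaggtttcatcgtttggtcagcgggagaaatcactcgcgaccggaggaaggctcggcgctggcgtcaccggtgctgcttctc
Lig1, chr7:13276925-13277224, with the E-box CACGTG: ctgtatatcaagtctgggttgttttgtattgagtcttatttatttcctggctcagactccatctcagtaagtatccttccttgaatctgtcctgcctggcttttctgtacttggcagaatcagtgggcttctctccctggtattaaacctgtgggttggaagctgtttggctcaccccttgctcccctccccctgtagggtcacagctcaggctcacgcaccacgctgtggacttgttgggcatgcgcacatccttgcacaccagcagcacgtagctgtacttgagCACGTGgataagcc
Lig1, chr7:13278576-13278875, with 2 GC boxes on the minus strand: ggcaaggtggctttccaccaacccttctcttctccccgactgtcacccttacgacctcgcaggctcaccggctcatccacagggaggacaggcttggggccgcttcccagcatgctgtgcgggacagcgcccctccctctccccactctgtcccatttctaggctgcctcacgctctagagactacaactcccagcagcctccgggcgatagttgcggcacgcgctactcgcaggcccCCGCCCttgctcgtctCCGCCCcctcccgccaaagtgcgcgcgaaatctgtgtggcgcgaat
Lig1, chr7:13279015-13279314, with 1 GC box on the plus strand: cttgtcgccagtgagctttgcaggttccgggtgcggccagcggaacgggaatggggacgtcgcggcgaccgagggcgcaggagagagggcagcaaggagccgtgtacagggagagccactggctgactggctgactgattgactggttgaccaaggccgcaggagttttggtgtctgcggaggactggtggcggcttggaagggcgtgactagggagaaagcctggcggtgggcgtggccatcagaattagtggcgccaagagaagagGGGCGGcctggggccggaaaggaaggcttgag
The motifs were searched on both strands by exact match. They were the E-box CACGTG, which is read by CLOCK-BMAL1, MYC and USF factors, the GC box GGGCGG, the CCAAT box CCAAT, the ETS motif CCGGAAG and a p53 binding motif. RefSeq gave 39 promoters for 35 of the 41 genes, among 32851 promoters in all. The E-box was present in 10 of the 39 (25.6%) and in 7.15% of all promoters. It lay in the promoters of 9 genes, Rfc1, Lig1, Gtf2h1, Rpa1, Lig3, Cdk7, Ercc8, Ercc6 and Gtf2h5. The GC box was in 69.2% against 35.7%, the CCAAT box in 46.2% against 37.4%, and the ETS motif in 25.6% against 8.86%. Member promoters also had a higher GC content, with a median of 64.3% against 52.7% in all promoters, and the bearing of that on the motif shares was not tested. The p53 motif was found in 1 member promoter, that of Cetn2 (2.56%), against 8.36% of all promoters, and the motif searched is the half-site of the p53 element. The table held no promoter of Xpc, Ddb2, Ercc3, Pole, Ccnh or Rfc2, so none of these was searched.

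Damage recognition across the genome is the task of XPC with RAD23B and centrin-2, and of the UV-DDB complex (DDB1, DDB2) that works with the CUL4-RBX1 ubiquitin ligase. None of these 8 genes passed the edgeR test, with 3 higher at an unadjusted p below 0.05. Ddb1, the adaptor of the ligase, measured 277.8, 282.3 and 275.8 CPM in UV skin, against 234.0, 240.3 and 256.7 CPM in control skin. Every UV library was above every control library, at a log2 difference of 0.19 (SE 0.08) and an edgeR adjusted p of 0.166. Xpc, the sensor itself, averaged 45.0 ± 2.2 CPM in UV skin and 39.4 ± 1.6 in control skin (SD, n = 3 each), with an edgeR adjusted p of 0.169. Ddb2, which binds photoproducts directly, averaged 8.10 ± 0.43 CPM in UV skin and 7.09 ± 0.59 in control skin (SD, n = 3 each), and its libraries overlapped (log2 0.19, edgeR adjusted p 0.337). It shared 23.8% of its exonic bases with Acp2 on the opposite strand, so its level is less certain. In human cells both XPC and DDB2 are known p53 targets. Cul4a, Cul4b and Rad23b had log2 differences of 0.05, 0.20 and 0.18 with every UV library above every control library, while Cetn2 (-0.14) and Rbx1 (-0.06) overlapped.

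Transcription-coupled recognition rests on CSB (Ercc6), CSA (Ercc8) and UVSSA, which brings TFIIH to the stalled polymerase. Uvssa measured 57.2, 64.9 and 63.4 CPM in UV skin, against 52.4, 54.9 and 50.6 CPM in control skin. The groups were apart, but the log2 difference of 0.23 (SE 0.08) did not pass (edgeR adjusted p 0.123). Ercc6 averaged 51.1 ± 1.1 CPM in UV skin and 54.0 ± 2.1 in control skin, and Ercc8 5.95 ± 0.90 and 5.68 ± 0.71 CPM in UV and control skin (SD, n = 3 each). Both overlapped between the groups.

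Of the 7 TFIIH core genes, Ercc3 was the 1 called. Gtf2h1, the p62 subunit that docks TFIIH onto its partners, measured 37.4, 34.6 and 35.7 CPM in UV skin, against 28.6, 30.1 and 31.2 CPM in control skin. The libraries separated fully, at a log2 difference of 0.26 (SE 0.08) and an edgeR adjusted p of 0.0842. Gtf2h5, the small subunit that steadies the complex, had a log2 difference of 0.28 (edgeR adjusted p 0.186), also with the groups apart. Ercc2, which encodes the XPD helicase, was near level at -0.03, as were Gtf2h3 (0.03), Gtf2h4 (0.05) and Gtf2h2 (0.10), all with overlapping groups. Ercc2 shared 42.7% of its exonic bases with other annotated genes, Klc3 and Gm26852 on the opposite strand and Mir343 on the same strand. The use of strand in counting was not stated, so reads of such pairs cannot be told apart.

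The CDK-activating kinase, a module of TFIIH, is built of CDK7, cyclin H and MAT1. Ccnh, the cyclin, measured 15.8, 14.1 and 12.5 CPM in UV skin, against 11.99, 11.6 and 11.4 CPM in control skin. All UV libraries were higher, by 0.28 on the log2 scale (SE 0.11), with an edgeR adjusted p of 0.162. Mnat1 had a difference of 0.14 with separate groups, and Cdk7 one of 0.04 with overlapping groups.

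Verification and incision hold Ercc5 and 6 other genes, none of which was called by edgeR or had an unadjusted p below 0.05. Xpa, the verification factor and a clock-controlled gene in mouse, averaged 23.7 ± 0.7 CPM in UV skin and 21.2 ± 2.1 in control skin (SD, n = 3 each). Its groups overlapped, at a log2 difference of 0.16 and an edgeR adjusted p of 0.332. Ercc1 and Ercc4, the partners of the 5′ nuclease, had differences of -0.01 and 0.14, both with overlap. The single-strand binding subunits Rpa1, Rpa2 and Rpa3 had differences of 0.16, 0.07 and -0.04, and of these Rpa1 had separate groups. The difference of Ercc5 was thus the largest of the 7, and the next, that of Ercc4 or Rpa1 and Xpa, lay at or below 0.16.

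Resynthesis holds 10 genes, of which none passed the edgeR test, 2 were higher at an unadjusted p below 0.05 and 9 had a log2 difference above 0 (6 with library totals alone). Rfc1, the large subunit of the clamp loader, measured 75.3, 79.2 and 70.3 CPM in UV skin, against 61.3, 64.1 and 65.0 CPM in control skin. Its groups did not overlap, and the log2 difference was 0.24 (SE 0.08) with an edgeR adjusted p of 0.105. Rfc3 (0.27) and Pcna, the sliding clamp (0.12), also had every UV library above every control library. Pold1, the catalytic subunit of polymerase delta, was the exception in sign at -0.20, with overlap. Pold2, Pold3, Pole, Rfc2, Rfc4 and Rfc5 lay between 0.02 and 0.18, all overlapping. In ligation, Lig1 was called, while Lig3, which seals patches in resting cells with XRCC1, had a difference of -0.02. Xrcc1, its scaffold, measured 24.1, 24.6 and 23.1 CPM in UV skin, against 29.3, 28.6 and 25.3 CPM in control skin. All UV libraries were lower, but the difference of -0.21 (SE 0.09) did not pass (edgeR adjusted p 0.173).

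Per kilobase of exon, Ddb1 was the most abundant of the 41, at 67.1 CPM per kb in UV skin and 58.6 in control skin. Lig1 (26.3 in UV skin, 19.9 in control skin), Ercc3 (22.3 and 16.9 in the same order) and Rad23b (20.9 and 18.5) followed. Ercc8 was the least abundant, at 0.776 CPM per kb in UV skin and 0.741 in control skin. Levels thus ranged widely along 1 pathway, with the ubiquitin ligase adaptor high and CSA low.

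A further list of 23 genes that act beside these, such as Usp7, the COP9 signalosome subunits and Parp1, gave no edgeR call in either direction, with 4 higher and 0 lower at an unadjusted p below 0.05. Their median log2 difference was 0.07, with 14 of 23 above 0. With library totals alone these were -0.03 and 10 of 23, and DESeq2 called 1 of the 23 higher. The largest was that of Cops6, a signalosome subunit, at 0.39 (edgeR adjusted p 0.0581). Since Lig1 and Pcna also serve replication, 15 genes of S phase and proliferation are given beside them. Of these, 1 was called higher (Ccne1, cyclin E1, log2 0.79, edgeR adjusted p 0.00921), 14 of 15 lay above 0, and their summed level was 1613 to 1877 CPM in UV skin and 1490 to 1646 in control skin. At an unadjusted edgeR p below 0.05, 10 were higher and 1 (Cdc6) was lower, where 25.1% of all genes had such a p. Every UV library lay above every control library for 11 and below for 1, where 15.5% of all genes showed each order. With library totals alone 11 of the 15 lay above 0, and DESeq2 called 5 of them higher. Their part in the difference of Lig1 was not tested.

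Enrichment by the antibody differed widely among the 41 transcripts and little between the groups. In UV skin, 13 genes were enriched in IP over input and 19 were depleted. In control skin, 13 were enriched and 20 depleted, each at an adjusted p below 0.05 (edgeR quasi-likelihood test over 25022 genes). The same 13 were enriched in both groups and the same 19 depleted in both, and 8 genes passed in neither. Over all genes, 24.7% were called above input and 24.3% below it in UV skin, and 24.6% and 25.8% in control skin. The members' median log2 ratio was -0.19 in UV skin and -0.21 in control skin, against -0.01 and -0.04 for all genes. Across the 41 genes the ratios of the 2 groups correlated at r = 0.975 (Spearman 0.953), a description over genes that share the same libraries. Because each library is centred on its typical gene, a depleted gene is one below that gene and not one without m6A. Scaled by library totals alone, 10 members were enriched in UV skin and 7 in control skin, and the medians of all genes fell by 0.16 in UV skin and 0.25 in control skin. The upward share of calls over all genes was then 38.0% in UV skin in place of 50.4%, and 30.3% in control skin in place of 48.8%.

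The 4 highest ratios in control skin belonged to incision, opening and transcription-coupled genes. Ercc5 had log2 ratios of 0.99, 0.88 and 0.91 in the UV samples, against 0.88, 1.02 and 1.09 in the control samples. Ercc6 had 0.69, 0.78 and 0.69 in the UV samples, against 0.83, 0.82 and 0.77 in the control samples. The groups overlapped in both genes. The fitted log2 ratios were 0.93 in UV skin and 0.99 in control skin for Ercc5, and 0.72 in UV skin and 0.81 in control skin for Ercc6. Ercc4, the XPF nuclease, had 0.64, 0.74 and 0.63 in the UV samples, against 0.89, 0.75 and 0.87 in the control samples, with no overlap by a narrow margin. Ercc3 is described with the changes below.

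The 4 lowest ratios in control skin were those of Ddb1, Rfc4, Rpa3 and Gtf2h3. Ddb1 had log2 ratios of -1.78, -1.82 and -1.79 in the UV samples, against -1.67, -1.62 and -1.73 in the control samples. The transcript most abundant per kilobase among the 41 was thus also the most depleted. Rfc4 had -0.96, -1.19 and -1.39 in the UV samples and -0.96, -1.32 and -0.95 in the control samples. Rpa3 had -0.55, -0.62 and -0.52 in the UV samples and -0.73, -1.20 and -0.81 in the control samples, so that every UV sample was above every control sample. Gtf2h3 had -0.96, -0.82 and -0.91 in the UV samples and -1.10, -0.81 and -0.79 in the control samples, with overlap. All 4 were called depleted in both groups. Rfc4 shared 12.6% of its exonic bases with Eif4a2 on the opposite strand, so its ratio is less certain. The same holds for the depleted genes Ercc2 (42.7% with Klc3, Gm26852 and Mir343), Ddb2 (23.8% with Acp2), Rfc2 (15.1% with Lat2) and Rfc5 (10.7% with Wsb2).

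By role, resynthesis had no enriched gene in either group, with 7 of 10 depleted in UV skin and 8 of 10 in control skin (Pold1 made the difference). Of the 3 ligation genes, Lig1 and Lig3 were enriched and none was depleted. Damage recognition had Xpc and Cetn2 enriched and 4 of 8 depleted (Ddb1, Ddb2, Cul4b and Rbx1), and transcription-coupled recognition had Ercc6 and Uvssa enriched and Ercc8 depleted. The TFIIH core split into Ercc3, Gtf2h2 and Gtf2h5 enriched and Ercc2, Gtf2h1, Gtf2h3 and Gtf2h4 depleted, so subunits of 1 complex fell on either side. Of the kinase module, Mnat1 was enriched and Cdk7 depleted. Of the incision genes, Ercc1, Ercc4 and Ercc5 were enriched, and Rpa1 and Rpa3 depleted. The 13 genes enriched in control skin had a median longest exon block of 2046 bases, against 1254 in the 20 depleted genes, an exon block being the union of overlapping exons in the deposited table. Across the 41 genes the Spearman correlation of the control ratio with the longest exon block was only 0.19, and with exonic length 0.30. It is a description over genes, and a weak one.

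**Figure D3:**
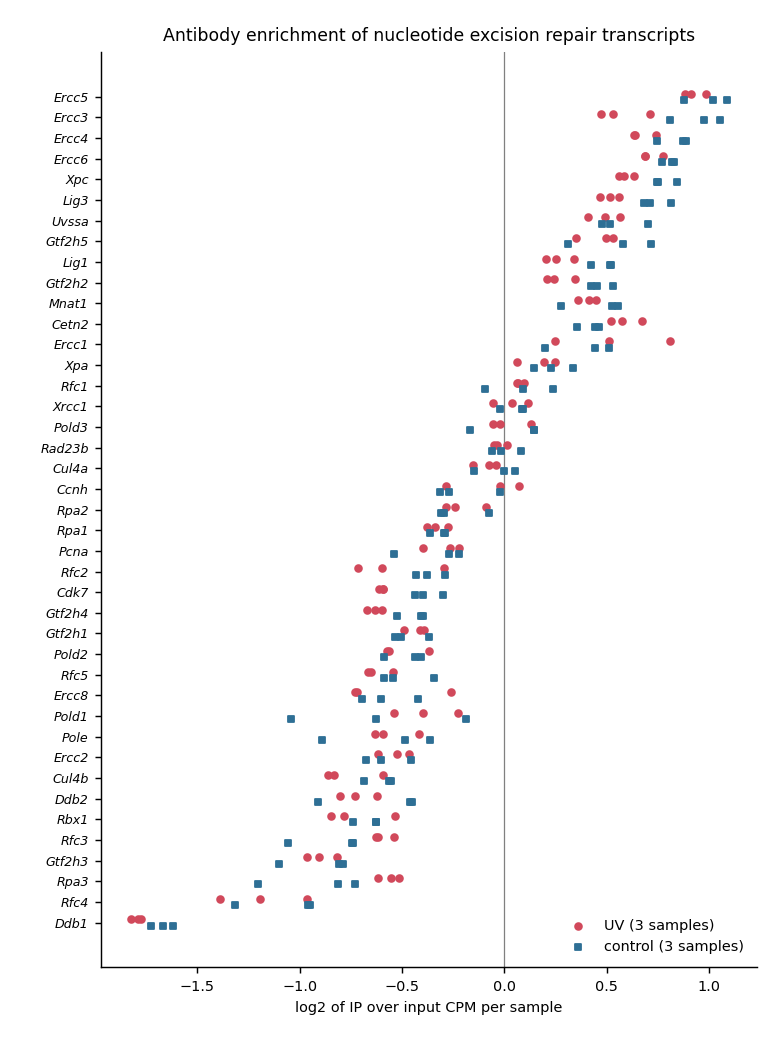
Log2 ratio of IP over input CPM for each of the 41 genes, sorted by the fitted control value. Circles are the 3 UV samples and squares the 3 control samples. The ratios run from about 1 in Ercc5 to below -1.6 in Ddb1, and the groups mostly overlap within a gene.

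No member was called for a changed IP over input in the fit without pairing, where 3 of 25022 genes were (0.012%). None was called by DESeq2 either. In data simulated with a fixed noise level, the fit without pairing recovered 14% of genes with a log2 change of 0.4 and 98% with 1. Those changes were placed only in genes above a minimum read level, and members such as Ercc8 and Rpa3 lay below it. A small change could thus go uncalled. At an unadjusted p below 0.05 there were 2 members, Ercc3 and Lig3, both lower in UV skin, where 4.43% of all genes had such a p. The median difference of the 41 was -0.05, against 0.00 for all genes. With library totals alone it was 0.04, where that of all genes was 0.09. The labels give IP and input of a sample the same name, so the fit was also made with the sample as a block. It called 1 member, Ercc3, where 1.59% of all genes were called.

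Ercc3 had log2 IP over input ratios of 0.47, 0.71 and 0.53 in the UV samples, against 0.81, 1.05 and 0.97 in the control samples. Every UV sample was below every control sample. The difference was -0.37 (SE 0.10, unadjusted p 0.00268, edgeR adjusted p 0.576) without the block and -0.37 (SE 0.08, edgeR adjusted p 0.0173) with it. With the block and 1 sample left out in turn, Ercc3 stayed past the threshold in 3 of 6 fits. Its edgeR adjusted p was 0.126 without Control 3, 0.188 without UV 1 and 0.107 without UV 3. Its IP libraries held 84.1, 92.0 and 87.6 CPM in UV skin and 83.2, 87.7 and 86.4 CPM in control skin (scaled over all 12 libraries), overlapping, while its input level was the higher in UV skin, as given above. The ratio and the transcript level rest on the same input libraries and are not separate evidence.

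Lig3 had ratios of 0.47, 0.56 and 0.52 in the UV samples, against 0.71, 0.68 and 0.81 in the control samples. The difference was -0.22 (SE 0.09, unadjusted p 0.0261), with an edgeR adjusted p of 0.118 under the block. Lig1 had 0.20, 0.34 and 0.25 in the UV samples, against 0.52, 0.42 and 0.52 in the control samples, a difference of -0.22 (SE 0.11, edgeR adjusted p 0.104 with the block). Its IP libraries held 121.5, 138.2 and 119.0 CPM in UV skin and 106.9, 111.7 and 111.7 CPM in control skin (scaled over all 12 libraries). The IP level of Lig1 was thus higher in UV skin, as was its input level given above. As for Ercc3, the ratio and the transcript level are not separate evidence. Gtf2h2, the p44 subunit of TFIIH, had 0.24, 0.21 and 0.35 in the UV samples, against 0.42, 0.45 and 0.53 in the control samples, a difference of -0.20 (SE 0.11, edgeR adjusted p 0.361 with the block). In all 3 genes the UV samples lay below the control samples, and none passed. They were named for their small p, so groups that lie apart can be expected of them. Xpc, Ercc4, Cdk7, Gtf2h4 and Ddb1 had the same order, and Cetn2, Rfc3 and Rpa3 the reverse. The share of all genes with ratios so apart was not computed. Lig3 shared 25.1% of its exonic bases with Rffl on the opposite strand, and Lig1 5.79% with 6330408A02Rik.

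The deposited peak table, with peaks called separately in the UV and control arms, held 84 peaks in 26 of the 41 genes, 45 from the UV list and 39 from the control list. Of the 25022 genes tested, 48.7% had a peak in either list, 46.1% in the UV list and 37.5% in the control list. Of the members, 26 had a peak in the UV list and 23 in the control list. The members' peaks merged into 47 regions, of which 35 were in both lists, 10 in the UV list alone and 2 in the control list alone. The whole UV list was also the longer, at 24969 peaks against 18020. Regions were not merged over all genes, so no share stands beside these counts. All 23 genes with a control peak had a UV peak too, and Rbx1, Rpa2 and Pcna had a UV peak alone. Every one of the 13 genes enriched in control skin had a peak, as did 7 of the 8 called in neither direction there, all but Ccnh, and 6 of the 20 depleted genes (Rpa1, Pcna, Cdk7, Gtf2h1, Pole and Rbx1). Peaks and ratios come from the same libraries, so this overlap is a description and not separate evidence. The share of all enriched or depleted genes with a peak was not computed. The 15 genes without a peak were Ddb1, Ddb2, Cul4b, Ercc2, Ercc8, Gtf2h3, Gtf2h4, Ccnh, Rpa3, Rfc2, Rfc3, Rfc4, Rfc5, Pold1 and Pold2.

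Genes with 3 or more peaks in a list were Ercc6, Uvssa, Xpc, Ercc5, Ercc4 and Lig1. Ercc6 had 5 UV and 4 control peaks, 3 of the UV ones in exon blocks 18 and 21, the last of its 21. Its strongest, at chr14:32576853-32577093 in that last block, had a fitted log2 IP over input of 1.77 in UV skin and 1.90 in control skin. Ercc4 had a peak at chr16:13147924-13148344, in the last of 11 exon blocks, at 2.37 in UV skin and 1.61 in control skin. The value in UV skin was the highest of any member peak there, while in control skin the Ercc4 peak in block 8 was higher, at 1.70. The control list's peak at chr16:13147894-13148164 had 2.21 in UV skin and 1.83 in control skin. Ercc5 had peaks in block 8 of 14 (chr1:44166846-44167651, 1.16 in UV skin and 1.38 in control skin), in block 9 in the UV list alone, and in its last block (chr1:44180544-44181141, 1.64 in UV skin and 1.79 in control skin). Uvssa had 4 peaks in each list, 3 of them in the last of 13 exon blocks. Xpc had 3 UV and 5 control peaks, with its strongest in block 9 of 15, where the UV list has 1 peak (chr6:91499388-91500132, 1.29 in UV skin and 1.36 in control skin) and the control list 2, the higher at chr6:91499775-91500072 (1.39 in UV skin and 1.41 in control skin). Lig1 had 2 UV and 3 control peaks, all within the 5′ portion of its exons. Coordinates are those of the deposited GRCm38 table, printed with starts counted from 1.

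Over all 84 peaks, 31 reached into the last exon block and 14 touched the first. Peaks in the last block had a median log2 IP over input of 1.27 in UV skin and 1.24 in control skin for the 18 of the UV list. Peaks touching the first block had 0.94 and 0.96 for the 8 of the UV list, and the remaining 19 had 0.75 and 0.88, in UV and control skin. Peaks were called for their IP signal, so these levels are a description. Antibodies to m6A also bind m6Am next to the cap, so signal in a first exon does not separate the marks. The Ercc1 peak of the UV list lay at the 3′ end of its last block, with all 91 bases also in Cd3eap on the opposite strand. The control-list peak there covered 233 exonic bases, 106 of them shared, with a log2 IP over input of 1.98 in UV skin and 1.80 in control skin. Both are uncertain for that reason.

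**Figure D4:**
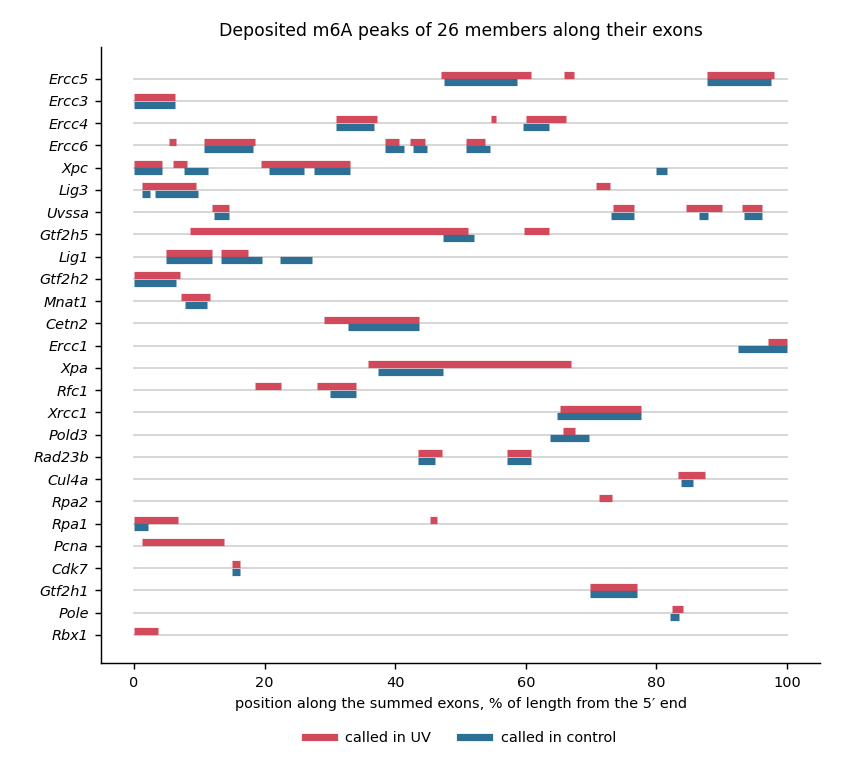
Positions of the deposited peaks of 26 genes along their summed exon blocks, in percent of length from the 5′ end, with genes sorted by control IP over input. Upper bars are peaks called in UV and lower bars peaks called in control. Ercc3, Gtf2h2 and Lig1 carry theirs towards the 5′ end, and Uvssa and Ercc5 have some near the 3′ end.

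No member peak was called changed between the groups in the fit without the block, where 0 of 41496 peaks were (0%). DESeq2 called none either. In data simulated with a fixed noise level, this fit recovered 1% of peaks with a log2 change of 0.4 and 48% with 1. Here too the changes were placed only in peaks above a minimum read level. A peak that was not called is thus not shown to be unchanged. At an unadjusted p below 0.05 there were 13 member peaks in edgeR, 11 lower and 2 higher in UV skin, which stand for 7 and 2 regions. Over all peaks tested, 2.61% were lower and 5.53% higher at that threshold. In the authors' deposited table, 0.105% of peaks had an FDR below 0.05 and no member peak did, the smallest being 0.875 in Rbx1. With the sample as a block, 6 member peaks were called, all lower in UV skin, where 0.974% of all peaks were called in either direction. They stand for 3 regions, in Ercc3, Lig1 and Lig3, each called from both lists, and all 3 lie at the 5′ end of the gene.

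The Ercc3 peak spans 387 bases over exon blocks 1 and 2 and was identical in both lists. Its log2 IP over input was 0.85, 1.06 and 0.90 in the UV samples, against 1.27, 1.51 and 1.49 in the control samples. All UV samples were lower, with a difference of -0.48 (SE 0.12, unadjusted p 0.00116) without the block and -0.48 (SE 0.09, edgeR adjusted p 0.00929) with it. The call stood in 3 of 6 fits with a sample left out, and was lost without Control 3, UV 1 or UV 3, at edgeR adjusted p of 0.133, 0.154 and 0.122. The authors' deposited table gives this peak a log2 change of -0.47 and an FDR of 0.988.

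The Lig1 peak at chr7:13277492-13279392 covers 300 exonic bases in exon blocks 1 to 3, and 2 of the 3 promoter windows printed above lie inside its span. It had log2 ratios of 0.60, 0.77 and 0.68 in the UV samples, against 1.11, 1.07 and 1.00 in the control samples, without overlap. The difference was -0.38 (SE 0.09, edgeR adjusted p 0.0362) with the block. With a sample left out, the call stood in 1 of 6 fits (that without Control 2), and the edgeR adjusted p reached 0.242. The Lig1 input level was higher in UV skin, and this ratio rests on the same input libraries. The Lig3 control peak at chr11:82783416-82783895, in exon block 2 of 20, had 0.80, 0.92 and 0.91 in the UV samples, against 1.28, 1.21 and 1.23 in the control samples. It too had every UV sample below every control sample, at -0.36 (SE 0.09, edgeR adjusted p 0.0367) with the block, and stood in 1 of 6 fits. The UV list's version of that peak, at chr11:82781198-82783865, gave -0.35 (edgeR adjusted p 0.0405).

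Pold3, a polymerase delta subunit, had the largest of these differences but the widest error. Its control peak at chr7:100083512-100083780, in the last of 15 exon blocks, had 0.28, 0.31 and 0.13 in the UV samples, against 1.11, 0.73 and 0.94 in the control samples. The groups were far apart, at -0.70 (SE 0.20) with the block, and the edgeR adjusted p was 0.0817. The UV list's peak in the same region covers 90 bases inside it and had 1.54, 1.76 and 0.66 in the UV samples, against 1.79, 1.71 and 2.03 in the control samples. There the groups overlapped, at -0.58 with the block (edgeR adjusted p 0.474). Peaks with a positive difference did not pass either. The Uvssa peak of the UV list at chr5:33418409-33418887 had 1.28, 1.09 and 1.53 in the UV samples, against 1.03, 0.31 and 0.50 in the control samples. Every UV sample was above every control sample, at 0.67 (SE 0.24, unadjusted p 0.0134), with an edgeR adjusted p of 0.551, or 0.193 with the block. The shorter control-list peak inside it had a difference of 0.23. Rbx1, the RING subunit of the ubiquitin ligase, had a first-block peak of 60 bases in the UV list alone, with fitted log2 ratios of 1.06 in UV skin and 0.11 in control skin. The difference of 0.95 (SE 0.35) had an unadjusted p of 0.0149 and an edgeR adjusted p of 0.555. The UV-only peak of Rpa2 was lower in UV skin, at 0.87 against 1.56 in control skin, so a peak called in 1 list alone did not mean a higher ratio there. The UV-only peak of Pcna had 0.94 in UV skin and 0.51 in control skin.

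**Figure D5:**
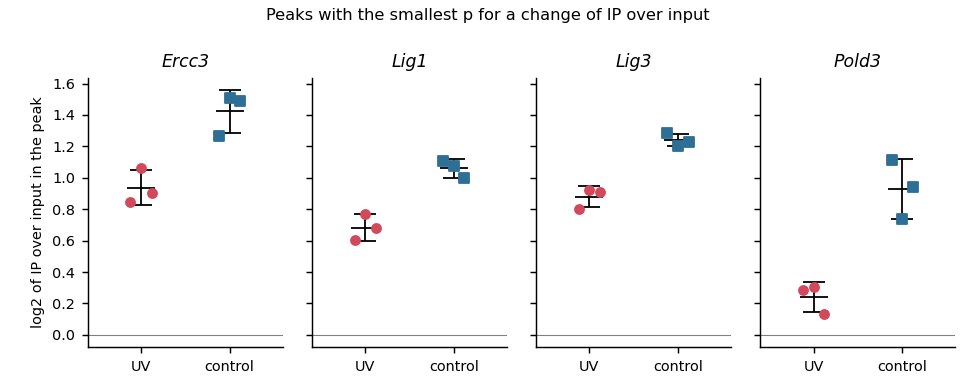
Log2 IP over input in the peaks of Ercc3, Lig1, Lig3 and Pold3 with the smallest p for a change, in the 3 UV and 3 control samples. Points are samples, the bar is the mean and the whiskers are 1 SD. In each peak all UV samples lie below all control samples, which can be expected of peaks chosen by their p. Of the 4, Pold3 was not called with the sample as a block.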

How the data were processed

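The authors deposited a table of read counts per gene and a table of peaks with read counts per library, their own log2 change, p-value and FDR. Reads were aligned with STAR 2.5.3a to GRCm38, per the submitters' processing notes, and TRIzol-extracted RNA was made into strand-marked libraries, per the labels' protocols. The counter, use of strand, duplicate handling, peak caller, test and antibody were not given in the sources used here. Of genes with 1 to 20 reads, 79.5 to 83.6% in each library had an even count, so read pairs may have been counted as 2 reads. Replicate libraries differed well beyond sampling noise, with chi-square over degrees of freedom of 55.3 to 194.

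From the deposited counts, edgeR 4.0.16 (R 4.3.3, limma 3.58.1) gave quasi-likelihood tests with TMM scaling, filterByExpr and Benjamini-Hochberg adjustment over all genes or peaks tested. Expression used the 6 input libraries. IP over input and its change used all 12 libraries with 4 group means, with the sample as a block as an alternative. IP and input carry the same sample name in the labels, and their deviations from the group means correlated at 0.648 to 0.902 over 9106 genes, against -0.727 to -0.135 for other numbers. The deviations of a gene within a group cancel, so positive values at equal numbers force negative ones elsewhere. The negative range is thus no separate evidence of the pairing. UV and control inputs of equal number correlated at -0.26 to 0.122, so the number does not pair the groups. CPM are scaled by TMM within each fit, and log2 ratios per sample use a prior count of 2. Alternatives were DESeq2 1.42.0, library size only, no filter and each sample left out. The scripts were tested on simulated data.

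Members and lists were chosen with earlier results of these data known. All 41 members are accounted for. Values per library are given for called members and, up to 8, those with the smallest p in expression, for the 4 highest and 4 lowest ratios in control skin, and for the 4 smallest p of change in genes and in peaks, beside genes with 3 or more peaks. Xrcc1 and other members outside that rule were named after their values were seen. Peak positions were set against the exons of the gene table. Sequences under the peaks were not analysed here.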

Additional observations from a re-analysis of the deposited data

Results flagged for a closer look

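The change of log2 IP over input between UV and control skin was past the threshold in the fit with the sample as a block (edgeR quasi-likelihood test) for 1 gene and 6 peaks, which stand for 3 regions. It was -0.37 for Ercc3 as a gene and -0.48 for the Ercc3 peak, the same in the UV and the control list. It was -0.38 for the first Lig1 peak, again the same in both lists. It was -0.35 for the Lig3 peak of the UV list and -0.36 for that of the control list. None was past the threshold without the block, so each of these calls rests on the pairing of IP and input within a sample. Ercc3 and Lig1 were also called higher in the UV input libraries, on which their ratios rest too.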

How the results depend on the processing

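Of the 3 genes called higher in UV skin, 1 was called when libraries were scaled by their totals alone and 1 with a replicate block that joined UV and control samples of equal number. With a sample left out the count was 1 to 3. The replicate number does not pair the UV and control inputs, so that block has no basis in the design. Ercc5 was the gene called in all of these. The count of genes enriched in control skin was 7 with library totals alone. With the sample as a replicate block, which rests on the shared sample name of IP and input, the changed genes numbered 1 and the changed peaks 6, against 0 and 0 without it. The block changed no other count of members past a threshold by over 1.5 times. Fits with the block and a sample left out were added after the blocked calls had been seen. Over all 41 members, scaling by library totals turned the sign of 10 expression differences, 3 ratios in UV skin, 4 in control skin and 15 changes of the ratio, and DESeq2 turned 1, 0, 1 and 1.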
